A study of Homo sapiens with 6 samples.

Results

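Genes of kynurenine, aryl hydrocarbon receptor and NAD metabolism were read out of RNA-seq libraries of the established human melanoma line LOX-IMVI. They were chosen by name, with earlier results of these data known, and make up 10 of the 47432 genes listed. They comprise IDO1, TDO2, KMO and KYNU of the kynurenine pathway, and AHR with its targets CYP1B1 and TIPARP. The others are NAMPT, NAPRT and NNMT of nicotinamide and NAD turnover. A lentivirus had delivered a short hairpin RNA (shRNA) to the cells, either a control (shCtrl) or a hairpin against NFKBIZ (shNFKBIZ), which encodes the nuclear co-regulator IκBζ, with 3 libraries per group. Apart from the hairpin, both groups shared the line, the culture medium and, by the methods of the study, the vector backbone and puromycin selection, and the labels name no other agent. A single hairpin was compared with a single control, so that effects of this hairpin on other transcripts cannot be told apart from those of NFKBIZ loss. The study describes 3 independent experiments per condition, while the labels do not say whether replicates were separate cultures. The P values weigh the difference between the groups against the spread between these libraries. If replicates were not separate cultures, that spread does not cover variation between cultures.

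Tryptophan is broken down along the kynurenine pathway. IDO1 and TDO2 carry out its first, rate-limiting step, and KMO and KYNU act further down, toward quinolinic acid, from which NAD can be made. Kynurenine and several of its products are ligands of AHR, a transcription factor that resides in the cytoplasm until it is bound and then induces genes such as CYP1B1 and TIPARP. Most cells make their NAD by salvage, NAMPT from nicotinamide and NAPRT from nicotinic acid, whereas NNMT methylates nicotinamide and thereby withdraws it from salvage.

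The libraries held between 22264473 and 24624839 total exon reads. NFKBIZ had 1519, 1629 and 1674 exon reads in the shCtrl libraries, against 474, 477 and 468 in shNFKBIZ cells, a log2 fold change of -1.78 (SE 0.0581, edgeR adjusted P 7.2e-17). Of 8 melanocytic markers, 7 were under 1 TPM (a level scaled to exon length and library size) in every library and 3 of them, SOX10, MLANA and S100B, were at 0, with a summed level of 3.19 to 4.23 TPM in shCtrl and 1.79 to 2.62 TPM in shNFKBIZ cells. Of the 6 markers of dedifferentiated melanoma, 5 were expressed, with a summed level of 2634 to 2796 TPM in shCtrl and 2927 to 3044 TPM in shNFKBIZ cells. Of 8 immune markers, 7 were under 1 TPM, and CD3E was at 0. The exception was CD68, which set the summed level of 96.7 to 101 TPM in shCtrl and 198 to 200 TPM in shNFKBIZ cells, but only 6.61% of its reads mapped to a single place. All 4 endothelial markers were under 1 TPM (summed, 0.696 to 0.875 and 0.594 to 0.954 TPM). Of 5 keratinocyte markers 3 were under 1 TPM and KRT1 was at 0 (summed, 60.04 to 72.1 and 73.1 to 80.7 TPM, mostly KRT10). The part of CD68 and the other moving markers in the results was not tested.

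The promoter windows of 3 genes that are held in the RefSeq promoter set (GRCh38.p14) are shown. The genes are KYNU as the kynurenine pathway member that fell by more than 2-fold, AHR as the receptor and TIPARP as its target. A link between these sequences and the results was not tested. Each is the stretch of up to 250 bases before the transcription start, written 5′ to 3′ on the plus strand, on which all 3 genes lie. They are KYNU at chr2:142877414-142877656, AHR at chr7:17298402-17298651 and TIPARP at chr3:156674340-156674589. The KYNU window ends where the annotated gene begins, which leaves 243 bases. In the TIPARP window capitals mark the core of the AHR response element, GCGTG, which reads CACGC when it lies on the opposite strand. In the AHR window capitals mark a match to the NF-κB consensus.
KYNU: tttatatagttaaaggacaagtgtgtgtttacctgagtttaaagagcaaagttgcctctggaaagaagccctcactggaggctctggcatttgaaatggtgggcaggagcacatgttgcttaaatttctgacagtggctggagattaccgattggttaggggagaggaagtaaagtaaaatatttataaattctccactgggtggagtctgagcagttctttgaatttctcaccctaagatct
AHR: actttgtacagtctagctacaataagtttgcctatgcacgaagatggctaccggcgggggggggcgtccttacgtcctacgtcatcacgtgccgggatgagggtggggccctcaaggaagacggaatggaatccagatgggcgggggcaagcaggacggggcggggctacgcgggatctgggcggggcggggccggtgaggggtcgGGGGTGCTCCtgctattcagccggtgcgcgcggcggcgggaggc
TIPARP: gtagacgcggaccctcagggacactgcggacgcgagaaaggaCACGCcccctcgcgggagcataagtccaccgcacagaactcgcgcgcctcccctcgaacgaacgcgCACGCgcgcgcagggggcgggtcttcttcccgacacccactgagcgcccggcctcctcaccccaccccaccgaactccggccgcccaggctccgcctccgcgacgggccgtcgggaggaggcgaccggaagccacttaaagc
The TIPARP window held 2 GCGTG cores, 208 and 142 bases before the start. The AHR window held none of these and 1 NF-κB consensus match, 44 bases before the start, and the KYNU window held neither motif. Of the windows not shown, that of TDO2 held neither motif, and a further TIPARP window at chr3:156676414-156676663 held neither. The windows of KMO and NAMPT mostly overlap annotated untranslated sequence. That of KMO held neither motif, and that of NAMPT held 1 GCGTG core 113 bases before the start. The promoter set had no entry for IDO1, NAPRT, NNMT and CYP1B1, so that these members were not searched. The windows of AHR, TIPARP, TDO2 and NAMPT lie within their annotated genes, which begin upstream of the start used. Both strands were searched, and of 35116 RefSeq promoter windows of the same length 32.2% held at least 1 GCGTG core and 9.96% at least 1 NF-κB consensus match. A match describes letters and not binding, which was not measured here.

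Next, the members were compared between the groups. IDO1 and KMO had reads close to 0 in all libraries. IDO1 had 1, 1 and 0 exon reads in the shCtrl libraries, against 0, 0 and 1 in shNFKBIZ cells, sums that lie under the limit of 3 reads, so that no fold is given. KMO, the hydroxylase that turns kynurenine into 3-hydroxykynurenine, had 2, 2 and 0 reads in shCtrl and 0, 2 and 2 in shNFKBIZ cells, and the ratio of the sums was 0.990 (exact 95% interval 0.184 to 5.32, counting error only). Neither gene passed the filter on low counts, and a difference was not detectable at this depth. In addition, KMO shares 1691 exon bases with the antisense gene OPN3, which had 230 to 266 reads in shCtrl and 101 to 141 in shNFKBIZ cells, and strand was not used in the counting.

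The other 8 members were tested, and 4 of them were past the threshold (adjusted P up to 0.05 and a change of 2-fold or more), which 8.96% of the 13843 genes tested reached. KYNU, NAMPT and NNMT fell (5.12% of all genes tested were past the threshold in that direction) and CYP1B1 rose (3.84%). Without the fold limit all 8 tested members passed, 4 in each direction, but so did 65.3% of all genes. Likewise, CPM, the counts scaled to library size, did not overlap between the groups in any of the 8, as in 68.7% of all genes, but TDO2 was separated only by 2.192 CPM in the lowest shCtrl library against 2.190 CPM in the highest shNFKBIZ library. The median log2 fold change over the 8 was -0.23, beside 0.00431 over all genes.

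**Figure D1:**
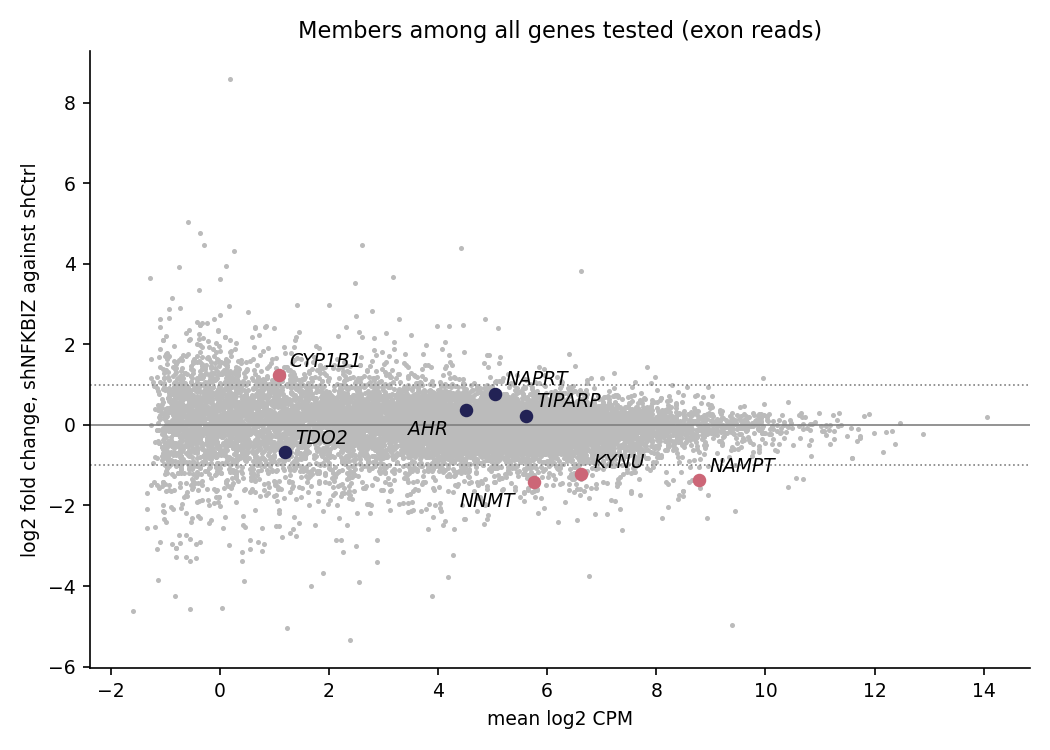
Log2 fold change of exon reads (shNFKBIZ against shCtrl, vertical axis) against mean log2 CPM (horizontal axis) for the 13843 genes tested (grey). The 4 members past 2-fold (pink) are KYNU, NAMPT, NNMT and CYP1B1, and the other 4 tested members (dark blue) lie between the dotted lines at 2-fold.

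KYNU, the kynureninase that cleaves kynurenine and 3-hydroxykynurenine, was the most abundant kynurenine enzyme among the members. It had 3213, 3224 and 3089 exon reads in the shCtrl libraries, against 1339, 1363 and 1415 in shNFKBIZ cells. Every shCtrl library lay far above every shNFKBIZ library, and replicates were tight. The level fell from 29.7 ± 0.976 to 13.4 ± 0.292 TPM (SD, n = 3), and the log2 fold change was -1.22 (SE 0.0392, edgeR quasi-likelihood adjusted P 5.34e-17), or 2.34-fold lower. Over 16 other settings of the fit it ranged from -1.26 to -1.14. In bulk RNA, fewer cells that express a gene and less RNA per cell cannot be told apart, here and for every gene that follows. KYNU lies at chr2:142877657-143055833 on the plus strand.

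TDO2, the tryptophan dioxygenase best known from the liver, was low. It had 68, 52 and 66 exon reads in the shCtrl libraries, against 39, 27 and 51 in shNFKBIZ cells. The groups came close, since the highest shNFKBIZ library had 51 and the lowest shCtrl library 52 reads, and in TPM they overlapped (1.63 and 1.54 TPM in these libraries). The level was 1.93 ± 0.343 TPM in shCtrl and 1.26 ± 0.368 TPM in shNFKBIZ cells (SD, n = 3), for which the fit gave a log2 fold change of -0.68 (SE 0.216, edgeR adjusted P 0.00853). This call was lost with DESeq2 (-0.69, adjusted P 0.0612), without shNFKBIZ replicate 2 (-0.48, edgeR adjusted P 0.0587) and when intron reads were added to the exon reads (0.16, edgeR adjusted P 0.386). It held in 13 of 16 other settings. TDO2 lies at chr4:155854738-155920406 on the plus strand.

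AHR itself had 462, 504 and 408 exon reads in the shCtrl libraries, against 634, 521 and 627 in shNFKBIZ cells. All 3 shNFKBIZ libraries were above the shCtrl libraries, though shNFKBIZ replicate 2 only slightly exceeded shCtrl replicate 2. The level rose from 9.25 ± 0.477 to 12.6 ± 1.18 TPM (SD, n = 3), a log2 fold change of 0.36 (SE 0.0767, edgeR adjusted P 0.000388), which is 1.29-fold. Only 60.9% of the AHR exon reads mapped to a single place, and 2373 of its exon bases are shared with another gene model, ENSG00000283321, which had at most 4 reads in a library. With unique reads alone the log2 fold change was 0.31 (SE 0.0816, edgeR adjusted P 0.00102).

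The AHR targets CYP1B1 and TIPARP were both higher after the knockdown. CYP1B1, a cytochrome P450 that oxidises hydrocarbons and estrogens, had 22, 32 and 29 exon reads in the shCtrl libraries, against 63, 65 and 70 in shNFKBIZ cells. The lowest shNFKBIZ library was well above the highest shCtrl library, yet all levels were low. Reads that span exon junctions were 0, 1 and 0 in shCtrl and 0, 2 and 2 in shNFKBIZ cells, too few to compare. It rose from 0.754 ± 0.141 to 1.88 ± 0.0845 TPM (SD, n = 3), for which the fit gave a log2 fold change of 1.24 (SE 0.196, edgeR adjusted P 1.01e-05). On the opposite strand RMDN2 shares 96 exon bases with CYP1B1. RMDN2 had 68, 72 and 79 reads in shCtrl and 161, 162 and 173 in shNFKBIZ cells (log2 fold change 1.16, SE 0.123, edgeR adjusted P 3.03e-08), and CYP1B1-AS1, also antisense, shares 678 exon bases and had 0, 2 and 1 reads against 5, 2 and 5. Their part in the CYP1B1 counts was not tested. CYP1B1 lies at chr2:38066973-38109902 on the minus strand.

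TIPARP, an ADP-ribosyltransferase that acts back on AHR, had 1035, 1001 and 1049 exon reads in the shCtrl libraries, against 1222, 1216 and 1212 in shNFKBIZ cells. The groups were separate, but the step was small. The level was 35.0 ± 2.74 TPM in shCtrl and 43.3 ± 0.811 TPM in shNFKBIZ cells (SD, n = 3), and the log2 fold change of 0.23 (SE 0.0502, edgeR adjusted P 0.000428) corresponds to 1.17-fold. A change of this size or larger was seen in 59.7% of all genes tested. TIPARP lies at chr3:156673235-156706770 on the plus strand.

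Among the genes of NAD turnover, the changes had opposite directions. NAMPT, the rate-limiting enzyme of NAD salvage from nicotinamide, had 14949, 14852 and 14042 exon reads in the shCtrl libraries, against 5791, 5457 and 5888 in shNFKBIZ cells. The groups were far apart in all libraries. The level fell from 101 ± 2.74 to 41.4 ± 0.991 TPM (SD, n = 3), a log2 fold change of -1.37 (SE 0.0354, edgeR adjusted P 1.43e-18), or 2.58-fold. Only 4.47% of all genes tested changed by as much or more in either direction. The TPM of NAMPT and KYNU are set by long unions of annotated exons (23584 and 17442 bases), which lowers them relative to genes with short models. NAMPT lies at chr7:106248298-106285966 on the minus strand, and an antisense RNA that shares 545 of its exon bases, ENSG00000273320, had only 7 to 13 reads per library.

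NAPRT, which starts NAD synthesis from nicotinic acid, had 525, 631 and 516 exon reads in the shCtrl libraries, against 933, 999 and 948 in shNFKBIZ cells. Here every shNFKBIZ library was above every shCtrl library. NAPRT rose from 32.0 ± 2.45 to 57.9 ± 2.92 TPM (SD, n = 3), for which the fit gave a log2 fold change of 0.77 (SE 0.0601, edgeR adjusted P 2.27e-10), which is 1.71-fold and under the 2-fold limit. The ratio of NAMPT to NAPRT in TPM was 3.43, 2.83 and 3.27 in shCtrl and 0.747, 0.657 and 0.747 in shNFKBIZ libraries. The ratio was lower in every shNFKBIZ library than in every shCtrl library (two-sided exact permutation test p = 0.1, the smallest that 3 against 3 libraries can give). Whether it lies above or below 1 rests on the exon models, since NAMPT is divided by a long union of exons. Before division by length NAMPT stayed far above NAPRT after the knockdown, at 252, 235 and 253 CPM against 40.7, 43.1 and 40.7 CPM.

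NNMT, the nicotinamide N-methyltransferase, had 1772, 1993 and 1658 exon reads in the shCtrl libraries, against 716, 656 and 690 in shNFKBIZ cells. The groups did not overlap. It fell from 113 ± 5.32 to 45.2 ± 1.65 TPM (SD, n = 3), a log2 fold change of -1.41 (SE 0.0534, edgeR adjusted P 1.01e-15), or 2.65-fold, within 1 SE of the drop of NAMPT. For NAMPT and NNMT, which use the same substrate, the ratio in TPM did not separate the groups. It was 0.894 ± 0.0636 in shCtrl and 0.915 ± 0.0245 in shNFKBIZ cells (SD, n = 3, two-sided exact permutation test p = 0.8). NNMT lies at chr11:114257787-114313536 on the plus strand.

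**Figure D2:**
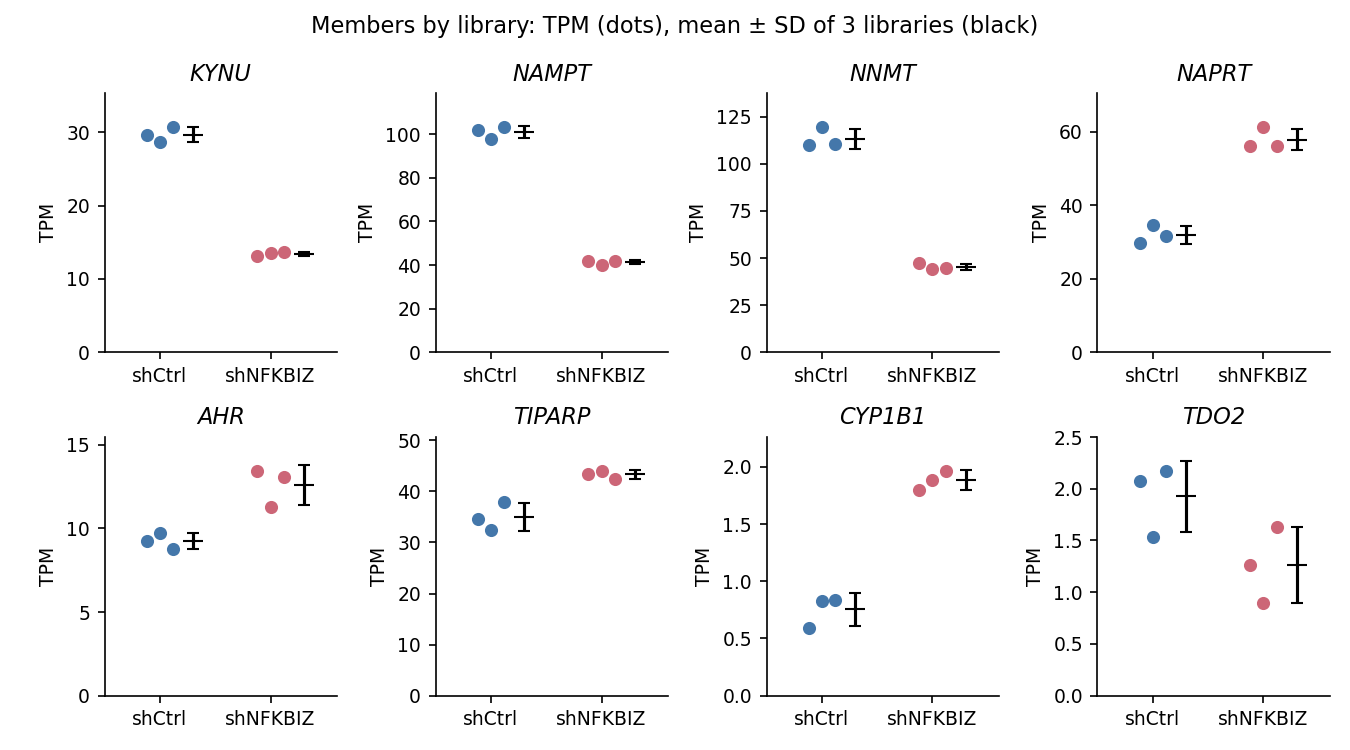
TPM (vertical axis, from 0) of the 8 tested members in each of the 3 shCtrl (blue) and 3 shNFKBIZ (pink) libraries, with mean and SD in black. KYNU, NAMPT and NNMT sit lower in every shNFKBIZ library, NAPRT, AHR, TIPARP and CYP1B1 sit higher, and TDO2 is below 2.5 TPM throughout and its groups overlap, with 1.63 TPM in the highest shNFKBIZ and 1.54 TPM in the lowest shCtrl library.

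Intron reads were then used as a further readout of the same libraries, since unspliced RNA is a main source of such reads in general. Of the 10 members 7 had enough intron reads to be tested, and 6 were past the threshold, which 6.6% of the 12119 genes tested on intron reads reached. KYNU, NAMPT and NNMT were lower (3.89% of all genes) and TDO2, AHR and NAPRT higher (2.71%). Without the fold limit all 7 passed, beside 38.8% of all genes, and intron CPM did not overlap between the groups in any of the 7, beside 48.2%. KYNU introns had 1049, 1007 and 922 reads in shCtrl and 380, 392 and 415 in shNFKBIZ cells (log2 fold change -1.42, SE 0.0652, edgeR adjusted P 8.69e-20). NAMPT introns had 232 or 233 reads in each shCtrl library and 75, 97 and 86 in shNFKBIZ cells (-1.52, SE 0.107, edgeR adjusted P 1.93e-14). NNMT introns fell from 232, 239 and 200 reads to 72, 65 and 58 (-1.87, SE 0.117, edgeR adjusted P 7.29e-16). In these 3 genes introns and exons therefore moved in the same direction, and the groups did not overlap.

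AHR introns had 144, 140 and 123 reads in shCtrl and 285, 342 and 301 in shNFKBIZ cells, a log2 fold change of 1.10 (SE 0.0924, edgeR adjusted P 2.58e-12). The groups were well apart, more so than in the exons. The annotated AHR gene reaches from 16916359 to 17346152 on chromosome 7, while its canonical transcript starts at 17298652, so that most of the sequence counted as intron lies upstream of that start. TIPARP introns rose from 37, 43 and 36 to 62, 61 and 85 reads (0.75, SE 0.177, edgeR adjusted P 0.000799), without reaching 2-fold. The antisense gene TIPARP-AS1 lies within these introns and had 3, 7 and 7 reads of its own in shCtrl and 16, 16 and 11 in shNFKBIZ cells. NAPRT had few intron reads, 5, 7 and 6 in shCtrl and 17, 11 and 16 in shNFKBIZ cells (1.18, SE 0.391, edgeR adjusted P 0.0149). This last call was lost without shCtrl replicate 1 (edgeR adjusted P 0.0661), without shNFKBIZ replicate 1 (0.0720) and without shNFKBIZ replicate 3 (0.0604).

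TDO2 was the member whose exons and introns moved in opposite directions. Its intron reads were 18, 13 and 15 in shCtrl and 40, 57 and 51 in shNFKBIZ cells, with no overlap and a log2 fold change of 1.59 (SE 0.233, edgeR adjusted P 8.66e-07). Intron reads accordingly made up 19.8% of the TDO2 reads in shCtrl and 55.8% in shNFKBIZ cells. Over all genes this share was 7.16%, 7.33% and 7.46% in the shCtrl libraries and 7.63%, 8.15% and 7.75% in the shNFKBIZ libraries. For TDO2 the test of the difference between exons and introns gave an exon minus intron change of -2.28 on the log2 scale (SE 0.309, edgeR interaction adjusted P 1.77e-09). Opposite directions, both with adjusted P up to 0.05, were seen in 341 of 11025 genes tested on both kinds of reads (3.09%). Reads that span exon junctions in TDO2 were 26, 25 and 33 in shCtrl and 19, 13 and 28 in shNFKBIZ cells, which overlap. As with AHR, the annotated TDO2 gene begins at 155854738 on chromosome 4, upstream of the canonical start at 155903696, and ASIC5, the antisense gene inside it, had 0 reads in all libraries.

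The exon change also differed from the intron change in 4 other members, so that 5 of 7 were past an adjusted P of 0.05, beside 28.9% of all genes. For AHR the exon minus intron change was -0.74 on the log2 scale (SE 0.112, edgeR interaction adjusted P 7.03e-08) and for TIPARP -0.52 (SE 0.178, adjusted P 0.0178). For NNMT it was 0.46 (SE 0.129, edgeR interaction adjusted P 0.00314) and for KYNU 0.19 (SE 0.0678, adjusted P 0.0229). In each of these 4 genes the introns thus showed the larger change in the same direction. No difference past the threshold was found for NAMPT (0.15, SE 0.111, edgeR interaction adjusted P 0.321) or NAPRT (-0.43, SE 0.395, adjusted P 0.459).

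**Figure D3:**
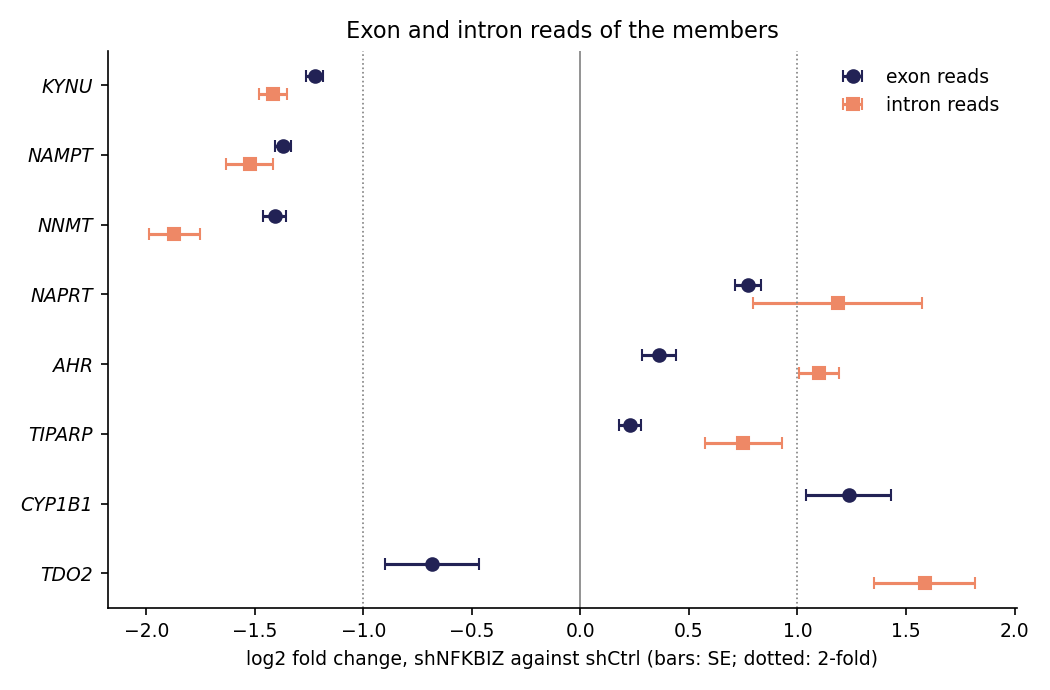
Log2 fold change (horizontal axis, shNFKBIZ against shCtrl) with its SE for exon reads (dark circles) and intron reads (orange squares) of the tested members. CYP1B1 has no intron value because its 3 to 12 intron reads per library did not pass the filter. TDO2 is the gene with exons at -0.68 and introns at 1.59, on either side of 0.

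To place the members among their pathways, 86 further genes in 9 lists were read from the same fit. Of these, 69 were tested, and 9 (13%) were past the threshold, 4 lower and 5 higher, beside 8.96% of all genes. The median over the 69 was -0.0987 on the log2 scale. The lists, too, were chosen with earlier results of these data known.

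Among 14 other enzymes of tryptophan use, 9 were tested, 2 were past the threshold downward and 1 upward, with a list median of 0.0488. QPRT, which turns quinolinic acid into a precursor of NAD, had 51, 53 and 50 exon reads in the shCtrl libraries, against 4, 7 and 6 in shNFKBIZ cells. It was nearly lost from all 3 shNFKBIZ libraries, with a log2 fold change of -3.17 (SE 0.284, edgeR adjusted P 2.33e-09), and 0.275% of all genes changed by as much. IL4I1, an amino acid oxidase that also makes AHR ligands from tryptophan, had 201, 173 and 147 reads in shCtrl and 57, 75 and 50 in shNFKBIZ cells (-1.53, SE 0.149, edgeR adjusted P 1.15e-08). AADAT, an aminotransferase that makes kynurenic acid, rose from 163, 207 and 208 to 386, 373 and 433 reads (1.03, SE 0.0958, edgeR adjusted P 5.85e-09), just past 2-fold and under it without shCtrl replicate 1 (0.92) or without shNFKBIZ replicate 3 (0.97). Of the most abundant genes on the list, the mitochondrial aminotransferase GOT2 fell (-0.49, SE 0.0380, edgeR adjusted P 2.49e-10) and the tryptophanyl-tRNA synthetase WARS1 rose (0.42, SE 0.0388, adjusted P 4.41e-09), both by less than 2-fold. HAAO, which acts between KYNU and QPRT, and ACMSD, which diverts the product of HAAO away from quinolinic acid, were at 0 in every library. Of 6 transporters 5 were tested and none was past the threshold with edgeR or DESeq2. An unadjusted edgeR P under 0.05 was reached by 4, but 65.3% of all genes had an adjusted P up to 0.05. SLC7A5, which carries tryptophan and kynurenine, fell (-0.55, SE 0.0493, edgeR adjusted P 2.35e-07) and its partner SLC3A2 rose (0.29, SE 0.0433, adjusted P 5.68e-06).

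Of 10 partners and regulators of AHR, 9 were tested, 6 fell and 2 rose with adjusted P up to 0.05, beside 32.8% lower and 32.5% higher of all genes, and only AHRR was past 2-fold. The chaperones HSP90AB1 (-0.33, SE 0.0325, edgeR adjusted P 1.09e-08) and HSP90AA1 (-0.29, SE 0.0356, adjusted P 3.36e-07), which hold AHR in the cytoplasm, fell slightly. The AHR partner ARNT had 1155, 1199 and 1019 reads in shCtrl and 615, 626 and 610 in shNFKBIZ cells. ARNT fell by 1.84-fold (-0.88, SE 0.0532, edgeR adjusted P 3.27e-12), under the 2-fold limit. AHRR, the AHR repressor and itself an AHR target, had 161, 283 and 50 reads in shCtrl and 636, 639 and 553 in shNFKBIZ cells. It was higher in all 3 shNFKBIZ libraries, but the shCtrl libraries scattered widely (log2 fold change 1.88, SE 0.492, edgeR adjusted P 0.0276). Only 6.59% of AHRR reads were unique. The annotation also holds a readthrough gene, PDCD6-AHRR, which had 3.26, 0 and 7.91 CPM in shCtrl and 0, 1.64 and 4.68 CPM in shNFKBIZ cells, so that in shCtrl it was highest where AHRR was lowest. Unique reads alone gave 1.06 (SE 0.247, edgeR adjusted P 0.000279), and the call held in 10 of 16 other settings. It was lost without shCtrl replicate 1 (edgeR adjusted P 0.0893), without shNFKBIZ replicate 1 (0.0852), 2 (0.0791) or 3 (0.0704), without the count filter (0.0540) and with a replicate block (0.0755).

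Of 11 other AHR target genes 7 were tested. They had a median of 0.59, and all 7 had an adjusted P up to 0.05 (5 higher, 2 lower), beside 65.3% of all genes. AHRR and STC2 were past 2-fold. STC2, a secreted glycoprotein, had 1839, 2103 and 2031 reads in shCtrl and 4798, 5016 and 4826 in shNFKBIZ cells (1.28, SE 0.0446, edgeR adjusted P 1.01e-15). The quinone reductase NQO1 (0.66, SE 0.0336, edgeR adjusted P 1.59e-13) and the serpin SERPINB2 (0.59, SE 0.04999, adjusted P 1.66e-07) rose by less than 2-fold. The 2 lower genes were SLC7A5, given above, and NFE2L2, a regulator of antioxidant genes (-0.14, SE 0.0383, edgeR adjusted P 0.00242). CYP1A1, the P450 most used as a sign of AHR activity, had 1 read in each shCtrl library and 3, 0 and 4 in shNFKBIZ cells, which gave a ratio of 2.31 (exact 95% interval 0.528 to 13.8, counting error only). A difference in CYP1A1 was not detectable at this depth, and CYP1A2 was at 0.

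Among 13 other genes of NAD synthesis 10 were tested, with QPRT past the threshold downward, NMNAT1 upward and a median of 0.0494. NMNAT1, the nuclear enzyme that completes NAD from its mononucleotide, had 37, 51 and 44 reads in shCtrl and 126, 107 and 118 in shNFKBIZ cells (1.40, SE 0.154, edgeR adjusted P 5.92e-08). The purine nucleoside phosphorylase PNP did not pass the test (-0.00738, SE 0.0413, edgeR adjusted P 0.885), and the NAD kinase NADK rose slightly (0.24, SE 0.0538, adjusted P 0.000412).

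Of the enzymes that consume NAD, 7 sirtuins were tested and none was past the threshold with edgeR or DESeq2. While 5 had an unadjusted edgeR P under 0.05, 65.3% of all genes had an adjusted P up to 0.05. SIRT1 fell (-0.65, SE 0.0626, edgeR adjusted P 7.83e-09) and SIRT6 rose (0.28, SE 0.0667, adjusted P 0.000781). Of 16 ADP-ribosyltransferases 15 were tested, 8 lower and 4 higher at an adjusted P of at most 0.05, beside 32.8% and 32.5% of all genes, with a median of -0.16. PARP9 had 252, 217 and 252 reads in shCtrl and 87, 93 and 107 in shNFKBIZ cells (-1.34, SE 0.115, edgeR adjusted P 1.05e-09). ZC3HAV1, an antiviral member of the family without catalytic activity, had 1524, 1526 and 1482 reads in shCtrl and 664, 615 and 692 in shNFKBIZ cells (-1.22, SE 0.0515, edgeR adjusted P 6.89e-15). In contrast, PARP3, which acts in DNA repair, rose from 88, 103 and 106 to 266, 276 and 239 reads (1.38, SE 0.109, edgeR adjusted P 2.69e-10). Of the most abundant genes of this list, PARP4 fell slightly (-0.25, SE 0.0417, edgeR adjusted P 1.89e-05) and TNKS2 did not pass the test (0.0447, SE 0.0402, adjusted P 0.34).

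The 3 NAD glycohydrolases were under 1 TPM in every library. CD38 had at most 2 reads in a library, BST1 had 16 reads in all in shCtrl and 12 in shNFKBIZ cells, and SARM1 did not pass the test (-0.71, SE 0.367, edgeR adjusted P 0.0957). All 9 genes of nicotinamide methylation and the methionine cycle, which supplies the methyl group that NNMT uses, were tested. None was past the threshold with edgeR or DESeq2, and the median was -0.30. An unadjusted edgeR P under 0.05 was reached by 6, beside 65.3% of all genes with an adjusted P up to 0.05. Of the most abundant, MAT2A, which makes the methyl donor, rose (0.49, SE 0.0762, edgeR adjusted P 0.00128), and AHCY, which clears its product, fell (-0.38, SE 0.0389, adjusted P 1.68e-08). MAT2B of the same list fell as well (-0.74, SE 0.0460, edgeR adjusted P 4.74e-12), under the 2-fold limit. With adjusted P up to 0.05, 5 genes of the list were lower and 1 higher, beside 32.8% and 32.5% of all genes.

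**Figure D4:**
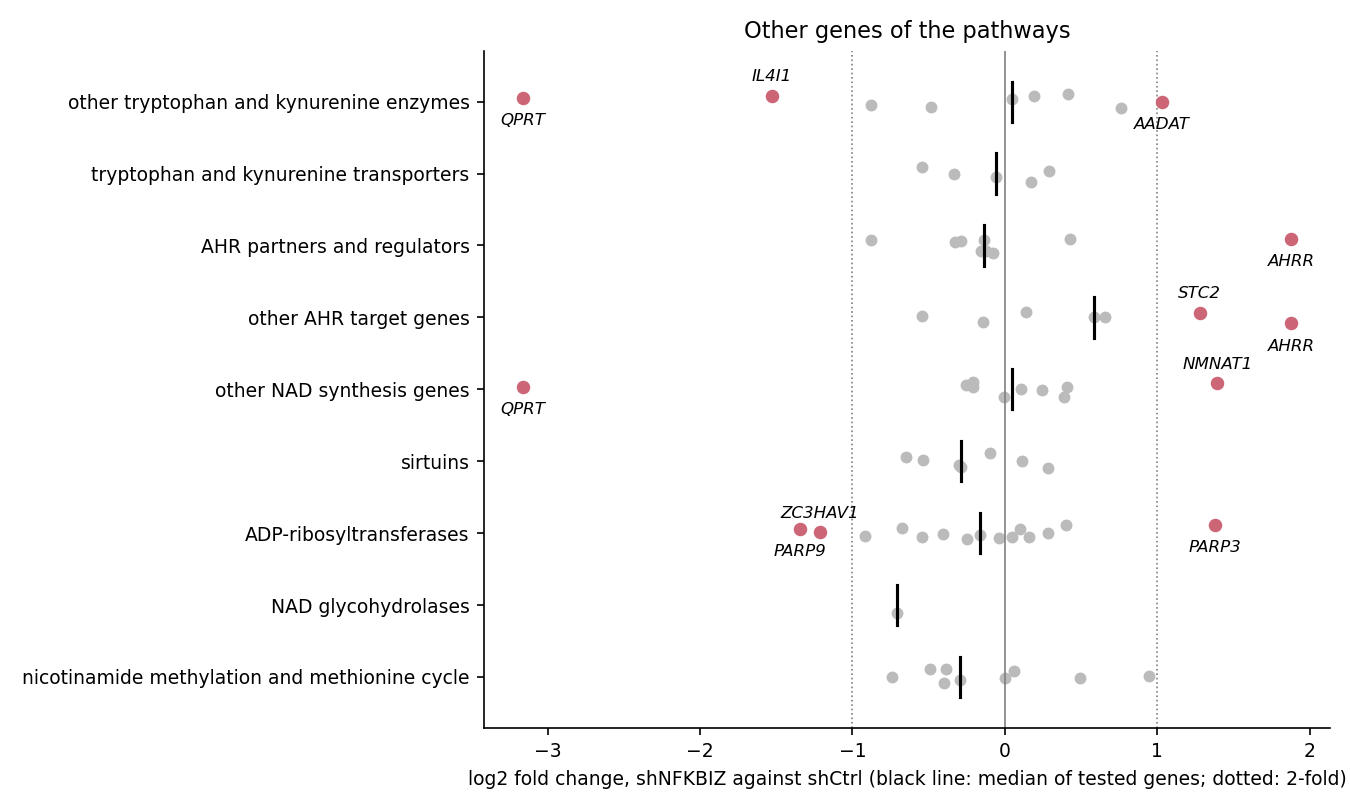
Log2 fold change (horizontal axis, shNFKBIZ against shCtrl) of each tested gene in the 9 lists (one line each, members left out), with the list median in black and genes past the threshold in pink. QPRT stands far to the left at -3.17, and AHRR, QPRT and SLC7A5 each appear in 2 lists.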

How the data were processed

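Total RNA of LOX-IMVI cells was sequenced by the authors, who mapped the reads to hg38 (GRCh38) with the default settings of CLC Genomics Workbench. Per gene, the authors deposited raw counts of fragments, separately for exons and introns. Reads that map to several places are included in total counts, and strand was not used. The deposited TPM values, written with a decimal comma, were recomputed from total exon counts and exon length (largest relative deviation 0.000264). Samples were grouped by title.

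Total exon counts of 47432 genes were filtered with filterByExpr, which left 13843, scaled with TMM and tested by quasi-likelihood in edgeR 4.0.16 (robust, two-sided) in R 4.3.3 with Benjamini-Hochberg adjustment over all genes tested. SE is the size of the log2 fold change divided by the square root of F. Intron counts (gene minus exon reads) were fitted alike, and the exon against intron change as an interaction with library blocks. Low counts were given exact intervals. In simulated data 197 of 200 changed genes among 13697 were recovered with 5 false calls, and in the interaction 200 of 200 among 10873 with 9. The planted changes were 1.5 on the log2 scale, up or down, in genes above a minimum of reads, with the same dispersion for every gene. Recovery of smaller changes or of genes below that minimum was not simulated. Replicates of a group were not copies (chi-square per degree of freedom 1.69 to 4.37). Coordinates are those of the files, 99.6% of which match GENCODE release 44. Sequences and motif counts are from RefSeq.

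Named were NFKBIZ, the members, each listed pathway gene past the threshold without overlap in CPM, and the 2 of each list with the highest mean TPM. Genes at counts too low to test and genes overlapping a member, PDCD6-AHRR, NFE2L2, ARNT and MAT2B were named after their values were seen. Members and lists were chosen with earlier results of these data known. One marker gene is not reported by name here. Alternatives tried were scaling by RLE factors or by library size alone, other count filters, the likelihood ratio test, DESeq2 1.42.0, unique or total gene reads, removal of the 10 most abundant genes, other thresholds, a replicate block and leaving out each library.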

Additional observations from a re-analysis of the deposited data

How the results depend on the processing

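Over all genes, 1241 were past the threshold. This count was 9039 without a fold limit, 3098 at 1.5-fold and 555 where mean TPM also had to differ by more than 4, and 1315 to 1361 when a library was left out. Of the members 4 were past the threshold in all settings of the fit, 8 passed without a fold limit, and 3 with the TPM difference, which CYP1B1 did not reach. Of the pathway genes 54 passed without a fold limit, 18 at 1.5-fold, and 7 to 9 when a library was left out. On intron reads 5 or 6 members were past the threshold when a library was left out. TDO2 turned to 0.16 on the log2 scale with total gene reads, which add the introns. Scaling by library size alone moved the median of all genes to 0.0937 and the share of higher genes among those past the threshold from 42.9% to 53.4%, and no member changed direction. Between libraries with the same replicate number, deviations correlated at only 0.0207, 0.0561 and 0.0288, although each was the highest for its library. Whether the numbers pair the samples was not tested. With the number as a block 1244 genes and 4 members were past the threshold. CYP1B1, TDO2 and the NAPRT introns rest on few reads, and for IDO1 and KMO depth allowed no comparison.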

Other observations

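Reads that span exon junctions give a further, spliced readout of the members that was not tested. KYNU had 1833, 1845 and 1691 junction reads in shCtrl and 754, 790 and 801 in shNFKBIZ cells. NAMPT had 4467, 4365 and 4212 in shCtrl and 1710, 1624 and 1734 in shNFKBIZ cells, and NNMT had 316, 395 and 360 against 139, 120 and 133. In all 3 genes every shNFKBIZ library was lower, as in the exon reads. Junction reads are unscaled here and form a part of the exon reads. How many of all genes separate by junction reads was not computed, but exon CPM did so in 68.7%. NAPRT had 300, 358 and 301 junction reads in shCtrl and 565, 581 and 573 in shNFKBIZ cells, each of the latter higher. CYP1B1 had 0, 1 and 0 junction reads in shCtrl and 0, 2 and 2 in shNFKBIZ cells, too few to compare. TIPARP had 111, 100 and 100 against 132, 131 and 119. AHR had 59, 61 and 36 against 65, 59 and 68, which overlap, so that AHR junction reads did not separate the groups as its exon and intron reads did.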
